A study of Mus musculus with 20 samples.

Results

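Cytochrome P450 genes of the Cyp1 family and of the Cyp2 family other than Cyp2c were examined in the livers of mice on a low-fat or a high-fat diet. The members were all genes with a probe set of their own (exactly 1 gene symbol in the platform annotation) whose symbol begins with Cyp1a, Cyp1b or Cyp2 and a number, leaving out Cyp2c. These were 27 of the 18193 genes tested, in 12 subfamilies, measured by 36 probe sets. The gene table of assembly GRCm38.p6 lists 36 protein-coding genes that meet the name rule, and 10 of them had no probe set of their own here: Cyp2a4, Cyp2a5, Cyp2a22, Cyp2ab1, Cyp2b23, Cyp2d11, Cyp2j8, Cyp2j12, Cyp2t4 and Cyp2w1. Cyp2a4 and Cyp2a5 share a probe set, which is described apart. Cyp2d13 is a transcribed pseudogene in that table.

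All mice were male C57BL/6J, an inbred strain, bought at 3 weeks of age and first kept on the low-fat diet. They then ate a diet with 10% (low fat) or 45% (high fat) of energy from fat for 4 weeks, and livers were taken after a fast of 16 h. Each diet had 10 mice with 1 array per mouse, and neither diet contained MSXH, the maple syrup extract given to other groups of the study, which are not analysed here. Mice were labelled eight-week-old. The comparison asks how the fasted liver differed after high-fat feeding. The deposited values are scores per probe set whose level resembles a log2 intensity but whose differences between mice were compressed to an unequal extent. Over the 20 mice the SD of the score ran from 3.64e-07 for Cyp2e1 to 0.00359 for Cyp2j9. A difference in score is therefore not a fold change, and sizes are given as standardised differences, in which the low-fat mean is subtracted from the high-fat mean and the result is expressed in units of the SD pooled over both diets. Each has a 95% interval, given in brackets. Values of single mice are given as deviations from the low-fat mean in the same SD units.

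Cytochromes P450 of these families sit in the endoplasmic reticulum, carry a haem group and take electrons from cytochrome P450 reductase and cytochrome b5 to oxidise drugs, environmental chemicals, steroids and fatty acids. Cyp1 genes are classical targets of the aryl hydrocarbon receptor, and Cyp2b10 is the textbook target of the constitutive androstane receptor. In the liver lobule Cyp1a2 and Cyp2e1 are made mainly by hepatocytes near the central vein and Cyp2f2 by those near the portal tract. Several members are sex-dependent in mouse liver, with Cyp2d9 higher in males and Cyp2b9 and Cyp2b13 higher in females.

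On the high-fat diet 1 of the 27 members fell, Cyp2j9, and 0 rose (limma, adjusted p over all genes with a threshold of 0.05). That is 3.7% of members, against 3.49% of all 18193 genes (1.71% higher and 1.78% lower), so the share of calls among members was near the background. At an unadjusted p under 0.05 the same fit gave 2 members higher and 3 lower, 18.5% of members against 17.0% of all genes, and the exact rank sum test called 0 members higher. The median standardised difference of the members was 0.04, equal to that of all genes, and their median absolute difference was 0.43 against 0.44. The lowest was -1.78 and the highest 1.08. The diets overlapped for every member. Of all genes 0.275% had diets that did not overlap, a share so low that 27 members do not stand apart from it. In whole liver, fewer cells of a type and less RNA per cell cannot be told apart.

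**Figure D1:**
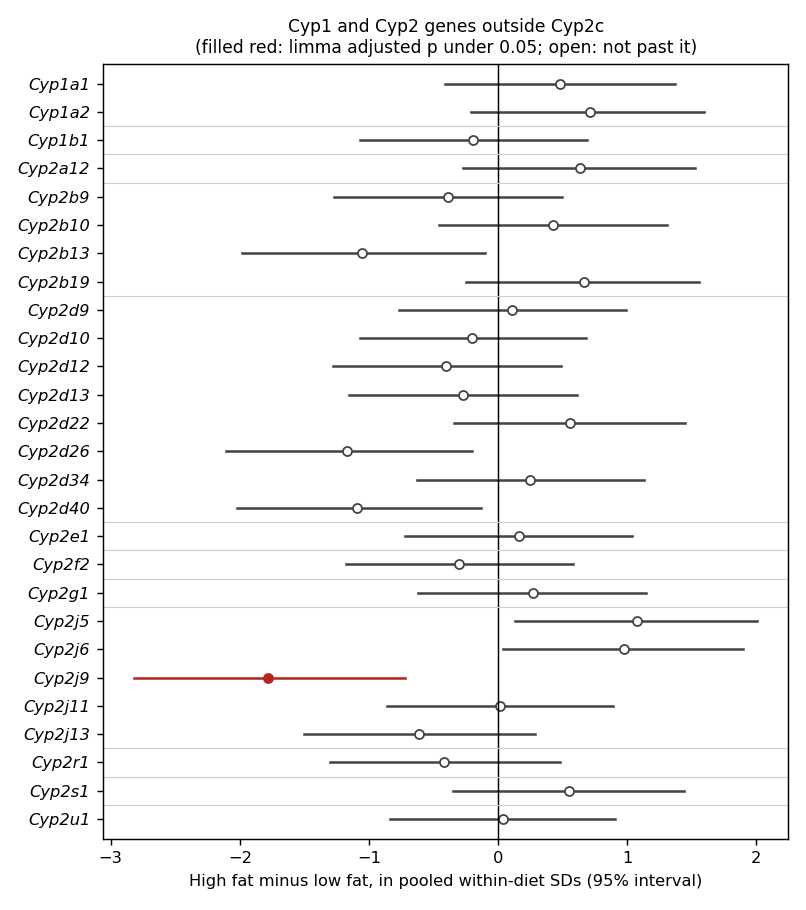
Standardised difference of each member (high fat minus low fat, in pooled within-diet SDs; points with 95% intervals; n = 10 mice per diet), with lines between subfamilies. Cyp2j9 at -1.78 is the member past the threshold, and the other members lie between -1.17 and 1.08. After centring arrays on their medians 25 of the 27 members lay below the low-fat mean, and the median of all genes was -1.29.

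Of the balance of directions, 15 members stood above and 12 below the low-fat mean, and this balance depended on scaling. After quantile normalisation 5 stood above and 15 below, with 7 members left at 1 value on all arrays, and after centring arrays on their medians 2 stood above and 25 below. Over all genes the median went from 0.04 to -0.41 by the first of these scalings and to -1.29 by the other, and over the members to -0.81 and -1.23. Centring subtracts 1 offset per array from all probe sets. Array medians ran from 6.567016 to 6.567202, while the median SD of a probe set was 1.17e-05. Of all 18193 genes 15098 passed after centring, 14883 of them lower, so a low position there is not particular to the members. The members lay close to the median of all genes in the main fit and after median centring. The medians after quantile normalisation cover only the 20 members and 17325 genes that were not constant. They are thus over other genes than the main medians, and the members' place there cannot be compared with the main fit. Intervals were up to 2.10 SD wide. In simulated data with this design and 200 changed genes the fit recovered 1% of genes with a shift of 1 SD, 36% with 2 SD and 95% with 3 SD. In the data more genes passed (635), which changes the cutoff set by the adjustment, so these shares need not hold there. The smallest absolute difference that passed among all genes was 1.60. A member that did not pass is thus not shown to be equal between diets.

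The Cyp2j genes encode epoxygenases and hydroxylases of polyunsaturated fatty acids, and those measured lie in 1 cluster on mouse chromosome 4 in the order Cyp2j13, Cyp2j11, Cyp2j6, Cyp2j9, Cyp2j5. Cyp2j9 had a low-fat mean score of 6.649 ± 0.00277 and a high-fat mean of 6.644 ± 0.00261 (SD, n = 10 per diet). Low-fat mice ran from -1.60 through a median of -0.05 to 1.48, and high-fat mice from -3.75 through a median of -1.61 to -0.36. All 10 high-fat mice lay below the low-fat median and 5 lay below every low-fat mouse, while the diets still overlapped. The standardised difference was -1.78 (95% interval -2.82 to -0.72), limma's adjusted p was 0.0282, and in 10 of the 100 possible pairings across diets the high-fat mouse was the higher. The direction was the same after quantile normalisation (-1.81) and after median centring (-1.82). Centring could barely move this gene, so its value there is no separate support. Array medians ran only from 6.567016 to 6.567202, while the score of Cyp2j9 differed by -0.00479 between diets. The call was lost with the replicate number as a block (limma adjusted p = 0.106) and with array weights (limma adjusted p = 0.0540). It was also lost in 4 of 20 fits that left out 1 mouse, those that dropped high-fat replicate 4 or low-fat replicates 5, 6 or 9 (adjusted p from 0.0504 to 0.0522). Cyp2j9 was measured by 1 probe set, whose mean score lay above that of 53.7% of all probe sets. Without detection calls it is unknown whether it was above background.

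Its neighbours on the chromosome, Cyp2j5 and Cyp2j6, stood on the other side of the low-fat mean and did not pass. Cyp2j5, an epoxygenase gene of liver and kidney, ran from -2.05 through 0.33 to 1.63 in low-fat mice and from -0.44 through 1.15 to 2.35 in high-fat mice. In 8 high-fat mice the value exceeded the low-fat median, and the difference was 1.08 (0.13 to 2.01, limma adjusted p = 0.202). The other Cyp2j5 probe set gave 1.18 (0.21 to 2.12, adjusted p = 0.187 over all probe sets). Cyp2j6 ran from -1.43 through -0.22 to 2.01 in low-fat mice and from -0.49 through 1.19 to 1.76 in high-fat mice, with all high-fat mice but 1 above the median of the low-fat mice. Its difference was 0.98 (0.04 to 1.90, limma adjusted p = 0.253), and its other probe set gave 0.71 (-0.21 to 1.60). The sign of Cyp2j5 turned after median centring (-0.43) and that of Cyp2j6 after quantile normalisation (-0.53). Cyp2j11 (0.02, -0.86 to 0.89) and Cyp2j13 (-0.61, -1.50 to 0.29) completed the subfamily. The difference between Cyp2j9 and its neighbours was not tested.

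**Figure D2:**
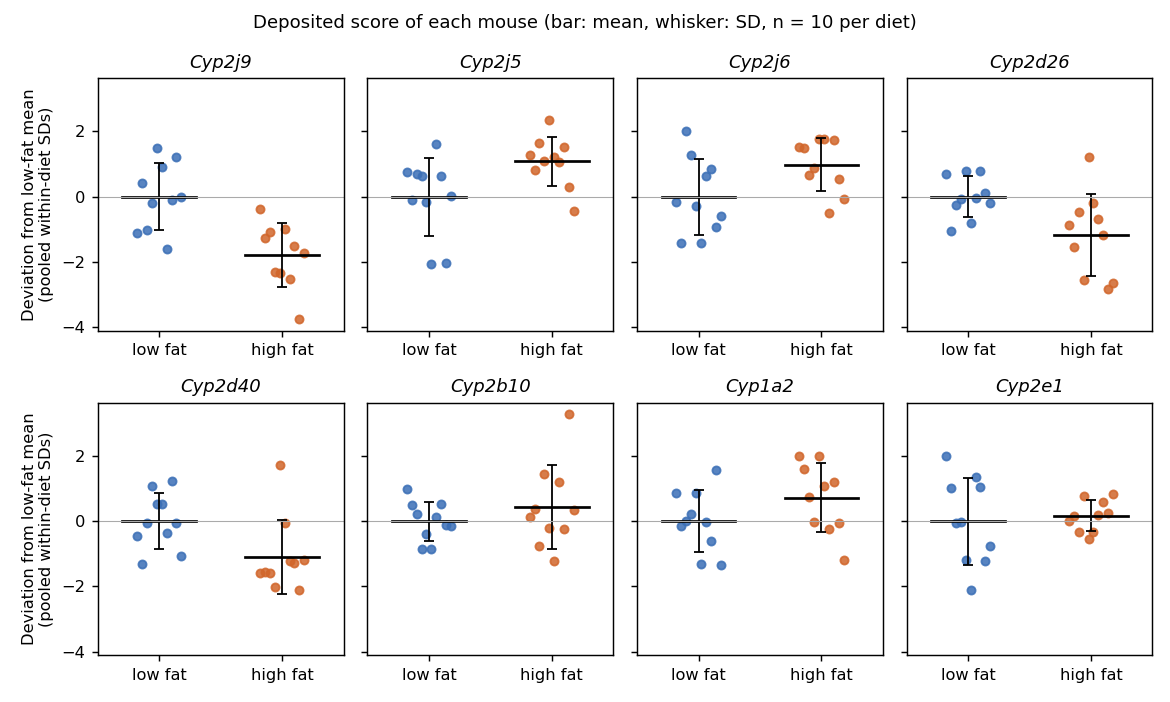
Deviation from the low-fat mean (vertical axis, pooled within-diet SDs) of each mouse for 8 members, with low-fat mice in blue and high-fat mice in orange; bars are means and whiskers SDs (n = 10 per diet). All high-fat mice lie below the low-fat median for Cyp2j9, and 1 high-fat mouse stands above all low-fat mice for Cyp2d26 (1.22) and Cyp2d40 (1.71).

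The 250 bases upstream of the start sites of Cyp2j9 and of its neighbours Cyp2j6 and Cyp2j5 are shown because these adjacent genes stood on opposite sides of the low-fat mean. Sequences are from RefSeq (GRCm38.p6), on the minus strand, 5′ to 3′, at chr4:96553652-96553901 for Cyp2j6, chr4:96591486-96591735 for Cyp2j9 and chr4:96664120-96664369 for Cyp2j5. Capitals mark the core of the xenobiotic response element that the aryl hydrocarbon receptor binds (GCGTG, searched on both strands as GCGTG or CACGC) and the TATA box (TATAAA, searched on both strands as TATAAA or TTTATA), and no matches overlapped.
Cyp2j6: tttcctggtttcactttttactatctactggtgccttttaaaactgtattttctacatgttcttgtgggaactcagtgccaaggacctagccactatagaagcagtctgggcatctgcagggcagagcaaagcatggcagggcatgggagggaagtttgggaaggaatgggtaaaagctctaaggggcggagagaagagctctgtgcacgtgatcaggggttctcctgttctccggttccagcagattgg
Cyp2j9: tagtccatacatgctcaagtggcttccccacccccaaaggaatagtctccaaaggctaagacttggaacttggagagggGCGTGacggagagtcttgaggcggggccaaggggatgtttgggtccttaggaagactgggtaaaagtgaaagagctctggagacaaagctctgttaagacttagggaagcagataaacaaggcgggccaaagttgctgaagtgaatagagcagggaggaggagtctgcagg
Cyp2j5: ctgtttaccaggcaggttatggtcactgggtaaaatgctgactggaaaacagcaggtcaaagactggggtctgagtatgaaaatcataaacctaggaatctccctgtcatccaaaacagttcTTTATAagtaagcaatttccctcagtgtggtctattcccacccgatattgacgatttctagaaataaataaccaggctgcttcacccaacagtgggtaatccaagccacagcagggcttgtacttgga
The xenobiotic response element core occurred once in the Cyp2j9 window, starting 171 bases before the start site, and the TATA letters once in the Cyp2j5 window, on the other strand and starting 128 bases before it. The Cyp2j6 window held neither. Of the 21 members with an entry in the promoter table, 5 held the element core (Cyp1a1, Cyp1b1, Cyp2b10, Cyp2j9 and Cyp2j13), or 23.8%, against 28.2% of all 32851 promoters of the same length. The TATA letters occurred in 9 of the 21 members (42.9%) against 12.4% of all promoters. A match is a description of letters and not evidence of a site in use.

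The Cyp2d genes form a cluster on chromosome 15, and their products oxidise many basic drugs. Of the 8 Cyp2d members 0 passed by limma or by the rank sum test, and 2 had an unadjusted limma p under 0.05, both lower on the high-fat diet: Cyp2d26 and Cyp2d40, which are neighbours among the members on the chromosome. Cyp2d26 ran from -1.05 through -0.05 to 0.80 in low-fat mice and from -2.84 through -1.01 to 1.22 in high-fat mice. Of its high-fat mice 5 lay below every low-fat mouse and 1 above every one, and the difference was -1.17 (-2.11 to -0.20, limma adjusted p = 0.162). Cyp2d40 ran from -1.32 through -0.07 to 1.24 in low-fat mice and from -2.10 through -1.41 to 1.71 in high-fat mice, again with 5 high-fat mice below all low-fat mice and 1 above them. Its difference was -1.09 (-2.02 to -0.13, limma adjusted p = 0.199). The high-fat mouse above the low-fat range was replicate 5 for both genes, and without it both passed (Cyp2d26 -1.74, limma adjusted p = 0.0435; Cyp2d40 -1.89, adjusted p = 0.0278). Cyp2d26 turned to 0.45 after quantile normalisation, whereas Cyp2d40 stood at -2.0 there (limma adjusted p = 0.0117).

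Cyp2d9, a male-predominant steroid 16-alpha-hydroxylase gene, stood at 0.11 (-0.77 to 0.99), with low-fat mice from -1.21 through -0.20 to 2.13 and high-fat mice from -1.52 through 0.08 to 1.77. Both ranges covered nearly the same interval. Cyp2d10 stood at -0.20 (-1.07 to 0.68), Cyp2d12 at -0.40 (-1.28 to 0.49) and Cyp2d34 at 0.25 (-0.63 to 1.13). Cyp2d22 ran from -1.21 through -0.08 to 1.37 in low-fat mice and from -1.90 through 1.01 to 1.99 in high-fat mice, so that the high-fat mice reached past the low-fat range at both ends. Its difference was 0.56 (-0.34 to 1.45, limma adjusted p = 0.575), or -0.94 after median centring and 1.02 without high-fat replicate 3, and its other probe set gave -0.01 (-0.89 to 0.87). The pseudogene Cyp2d13 stood at -0.27 (-1.15 to 0.61) and its other probe set at 0.19 (-0.69 to 1.06), or at -0.45 and 0.03 without low-fat replicate 2. Near-identical Cyp2d copies and the pseudogenes beside them could share signal, so that single Cyp2d values are uncertain as to their gene.

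In the Cyp1 family 0 of 3 members passed by limma or by the rank sum test, and 0 had an unadjusted limma p under 0.05. Cyp1a2, which metabolises caffeine and aromatic amines, ran from -1.35 through -0.02 to 1.58 in low-fat mice and from -1.18 through 0.91 to 2.00 in high-fat mice. In 3 high-fat mice the value exceeded that of every low-fat mouse, and the difference was 0.71 (-0.21 to 1.60, limma adjusted p = 0.449), or -0.27 after quantile normalisation. Cyp1a1, its neighbour on chromosome 9 and the most widely used readout of aryl hydrocarbon receptor activity, ran from -1.41 through 0.01 to 1.05 and from -1.06 through 0.28 to 2.69. The difference was 0.48 (-0.41 to 1.37, adjusted p = 0.642). Cyp1b1, which hydroxylates oestrogens, stood at -0.19 (-1.07 to 0.69), with low-fat mice from -1.37 through -0.47 to 2.69 and high-fat mice from -1.10 through -0.31 to 0.76. Its other probe sets stood on the other side of the low-fat mean, at 0.64 (-0.27 to 1.53) and 1.01 (0.07 to 1.94, adjusted p = 0.284 over all probe sets), so its direction differed between probe sets.

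Among the 4 Cyp2b members 0 passed by limma or by the rank sum test, and 0 had an unadjusted limma p under 0.05. Cyp2b10 varied more between high-fat than between low-fat mice. On its representative probe set low-fat mice ran from -0.85 through 0.00 to 0.99 and high-fat mice from -1.23 through 0.22 to 3.27, with 3 high-fat mice above every low-fat mouse. The difference was 0.43 (-0.46 to 1.31, limma adjusted p = 0.684), or -0.68 after median centring, 0.16 without high-fat replicate 9 and 0.66 without high-fat replicate 6. The other Cyp2b10 probe sets gave 0.81 (-0.11 to 1.72) and 0.76 (-0.16 to 1.67), and on each of them 4 high-fat mice exceeded the low-fat range. High-fat replicate 9 was the highest mouse on all 3 probe sets, at 3.27, 3.88 and 4.15, and high-fat replicate 4 lay above the low-fat range on all 3 as well (1.45, 1.67 and 1.36). High-fat replicate 8 stood at 2.22 and 1.67 on the other probe sets but at -0.23 on the representative one, so the probe sets differed in that mouse. The SD of high-fat mice was 2.15, 4.54 and 4.21 times that of low-fat mice on the representative and the other probe sets in that order. For comparison, 3.2% of all genes had a ratio above 2, the median over all genes was 0.99, and 3 members were above 2 (Cyp2b10, Cyp2d13 and Cyp2d26). The other probe sets carry a suffix for sequences shared between related transcripts. Their mean scores were 5.789 and 5.757, below the array medians near 6.57, against 6.675 for the representative one. Without detection calls it is unknown whether they were above background. The difference in spread was noticed in the data and was not tested. All these SD ratios of Cyp2b10 include high-fat replicate 9, its highest mouse, and were not computed without it.

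**Figure D3:**
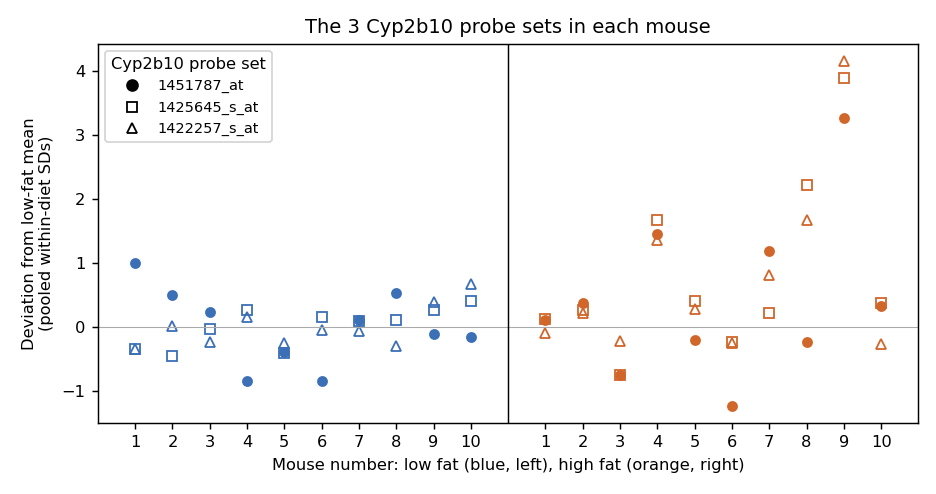
The 3 Cyp2b10 probe sets (symbols) in each mouse, as deviation from the low-fat mean in pooled within-diet SDs; low-fat mice are blue and high-fat mice orange. High-fat replicates 4 and 9 lie above all low-fat mice on every probe set, with replicate 9 between 3.27 and 4.15.

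The female-predominant genes Cyp2b9 and Cyp2b13 both stood below the low-fat mean without passing. Cyp2b13 ran from -2.06 through -0.19 to 1.79 in low-fat mice and from -2.09 through -0.99 to 0.50 in high-fat mice, and 9 high-fat mice lay below the low-fat median. The difference was -1.05 (-1.98 to -0.10, limma adjusted p = 0.371, and 0.231 in an unmoderated linear model), and it passed after quantile normalisation (-1.47, limma adjusted p = 0.0464). Cyp2b9 stood at -0.39 (-1.27 to 0.50). Cyp2b19, known as a skin epoxygenase, ran from -0.96 through -0.08 to 1.84 and from -1.30 through 0.83 to 2.18, a difference of 0.67 (-0.25 to 1.56). It stood at -1.05 after quantile normalisation.

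Cyp2e1, which oxidises ethanol, acetone and fatty acids, ran from -2.12 through -0.04 to 1.99 in low-fat mice and from -0.53 through 0.18 to 0.83 in high-fat mice. All high-fat mice lay inside the low-fat range, and the difference was 0.16 (-0.72 to 1.04, limma adjusted p = 0.976). The high-fat SD was 0.36 of the low-fat SD. With a mean score of 14.413 Cyp2e1 lay near the top of the score range (15.001), its SD was the smallest of all members, and the file gives no saturation flags. Limma's shared variance lowers the statistic of such genes, and in an unmoderated model the adjusted p of Cyp2e1 was 0.901. Ttr, a plasma carrier gene from the hepatocyte list with a score of 14.534, shows the size of that effect: its diets did not overlap (-3.12, -4.43 to -1.76), with an adjusted p of 0.224 by limma and 0.000942 unmoderated. The unmoderated model called the same number of members as limma (1).

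Cyp2a12, a steroid hydroxylase gene, ran from -1.75 through 0.03 to 1.61 in low-fat mice and from -0.80 through 0.75 to 2.08 in high-fat mice. The difference was 0.64 (-0.27 to 1.53, limma adjusted p = 0.508), or -0.88 after median centring. The probe set shared by Cyp2a4, a steroid hydroxylase gene, and Cyp2a5, the coumarin hydroxylase gene, ran from -1.29 through -0.23 to 1.10 and from -2.48 through -0.28 to 1.94. Its high-fat mice spread on both sides of the low-fat range, with a difference of -0.40 (-1.28 to 0.50, adjusted p = 0.733 over all probe sets), and how much of it comes from each of the genes is unknown. Cyp2f2, the naphthalene oxidase gene, ran from -1.94 through 0.07 to 2.25 in low-fat mice and from -1.57 through -0.47 to 1.28 in high-fat mice, a difference of -0.30 (-1.18 to 0.58, limma adjusted p = 0.794). It ranged from -0.58 without low-fat replicate 2 to -0.06 without low-fat replicate 5. After median centring Cyp2f2 passed (-1.34, limma adjusted p = 0.0178), but so did 15098 of all 18193 genes, whose median was -1.29.

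The remaining members were single genes of their subfamilies and did not pass, with limma adjusted p-values from 0.583 to 0.979. Cyp2r1, a vitamin D 25-hydroxylase gene, ran from -1.09 through -0.06 to 1.35 in low-fat mice and from -2.14 through -0.38 to 1.03 in high-fat mice, a difference of -0.42 (-1.30 to 0.48), or -0.24 without high-fat replicate 9. Cyp2s1 ran from -1.44 through 0.56 to 1.09 and from -1.05 through 0.44 to 2.24, a difference of 0.55 (-0.35 to 1.44) in which 4 high-fat mice exceeded the median of the low-fat diet. Cyp2g1, known from olfactory mucosa, ran from -1.42 through -0.41 to 2.11 and from -1.08 through 0.05 to 1.73, a difference of 0.27 (-0.62 to 1.15), or 0.57 without low-fat replicate 1, 0.11 without low-fat replicate 5 and -1.07 after median centring. Cyp2u1, a fatty acid hydroxylase gene, ran from -1.41 through -0.03 to 1.93 and from -1.66 through 0.32 to 1.30, a difference of 0.04 (-0.84 to 0.91), with -0.66 (-1.56 to 0.25) on its other probe set. The mean scores of 9 members lay at or below the middle of all probe sets, and without detection calls it is unknown which members were above background.

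Single mice stood out in different members. High-fat replicate 5 was the highest high-fat mouse for 7 of 27 members (25.9%) and for 12.3% of all genes, among them Cyp2j5 (2.35), Cyp2d40 (1.71) and Cyp2s1 (2.24). High-fat replicates 6 and 9 were each the lowest for 6 members (22.2%), against 13.0% and 11.8% of all genes. High-fat replicate 9 combined the highest Cyp2b10 value with the lowest values of Cyp2j9 (-3.75) and Cyp2d26 (-2.84). In the low-fat diet replicate 5 was the highest mouse for 6 members (22.2%) and for 12.9% of all genes.

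**Figure D4:**
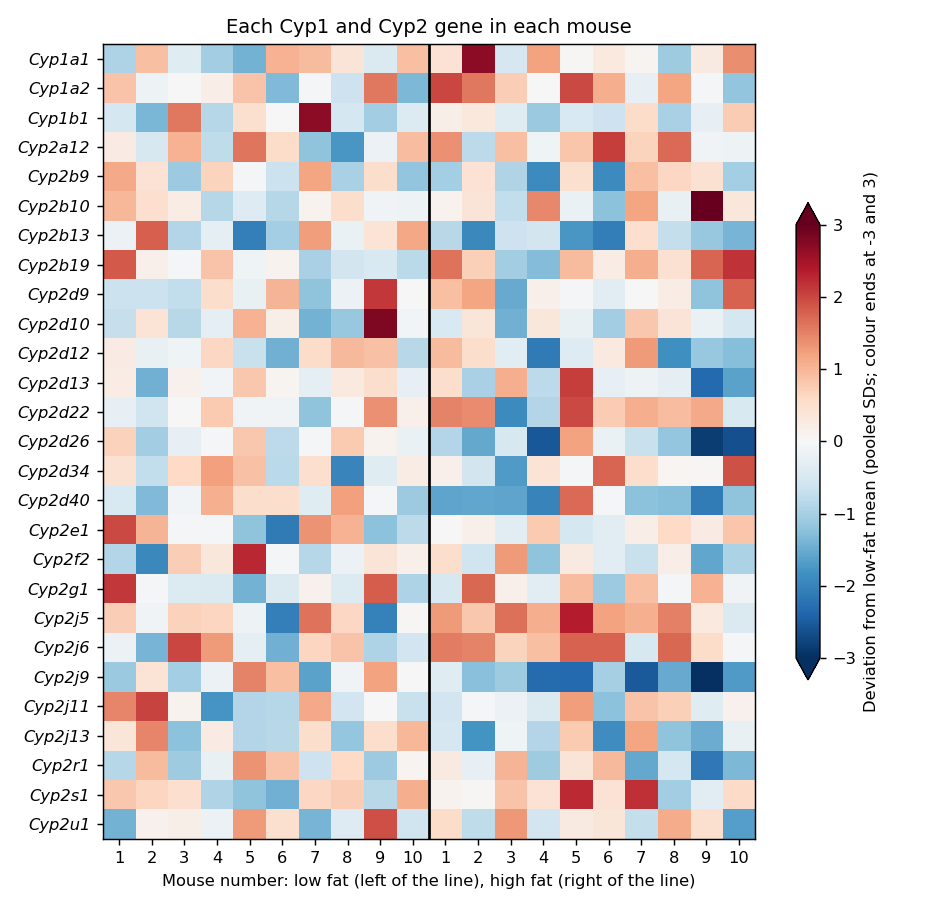
Deviation from the low-fat mean (colour, pooled within-diet SDs) of each member (rows) in each mouse (columns; low fat left of the line, high fat right of it). The Cyp2j9 row is blue in all high-fat mice, the Cyp2d40 row is blue in most of them but red in replicate 5 (1.71), and the Cyp2b10 row is darkest in high-fat replicate 9 (3.27).

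Genes that act with these cytochromes were taken from lists of regulators, electron donors and haem metabolism. Of 13 regulators 0 passed by limma or by the rank sum test, with 1 higher and 1 lower at an unadjusted limma p under 0.05. The constitutive androstane receptor gene Nr1i3 had the smallest adjusted p among them (1.25, 0.27 to 2.20, adjusted p = 0.130), and its partner Rxra stood at -0.96 (-1.88 to -0.02). The aryl hydrocarbon receptor gene Ahr (0.33, -0.55 to 1.21) and the pregnane X receptor gene Nr1i2 (-0.20, -1.08 to 0.68) lay close to the low-fat mean. The median of the regulators was -0.21, against 0.04 for all genes. Of 5 measured electron donors and their partners 1 fell and 0 rose (20%, against 3.49% of all genes). It was Pgrmc2, a haem-binding membrane protein (-1.92, -2.98 to -0.83, limma adjusted p = 0.0177, but -0.70 with an adjusted p of 0.309 after quantile normalisation). The cytochrome b5 reductase gene Cyb5r3 (-1.42, -2.39 to -0.41, adjusted p = 0.0809) and the cytochrome b5 gene Cyb5a (1.20, 0.23 to 2.15, adjusted p = 0.228) did not pass. The reductase gene Por is not analysed here.

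Of 12 measured genes of haem synthesis and breakdown 1 fell and 0 rose (8.33%, against 3.49% of all genes), with a median of 0.21. Urod, an enzyme of haem synthesis, fell (-1.77, -2.80 to -0.71, limma adjusted p = 0.0292), but its probe set without a cross-hybridisation suffix gave -0.93 (adjusted p = 0.297). That call was also lost with the mean of its probe sets (0.0512) and without low-fat replicate 5, 6 or 9 (up to 0.0524). Alas1, the first and rate-limiting enzyme of haem synthesis, stood at 0.30 (-0.59 to 1.18).

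Of 9 measured pericentral hepatocyte genes, Cyp1a2 and Cyp2e1 among them, 1 rose (11.1%, against 3.49% of all genes passing). At an unadjusted limma p under 0.05, 4 were higher and 0 lower (44.4%, against 17.0% of all genes). Of the 9 genes 8 stood above the low-fat mean, as did 9547 of all 18193 genes. The median of the 9 was 0.71, the value of Cyp1a2, against 0.04 for all genes. Cyp1a2 turned to -0.27 after quantile normalisation and Cyp2e1 to -1.33 after median centring, while Slc1a2 stayed above the low-fat mean in both (1.72 and 1.25). The SD of Cyp2e1 (3.64e-07) was far below the spread of array medians (6.567016 to 6.567202). Its centred value thus follows the array offset, and the median of all genes there was -1.29. Slc1a2 had larger SDs (0.000292 low fat, 0.000323 high fat), so the same offset moved it less. The glutamate transporter gene Slc1a2 rose (1.62, 0.58 to 2.63, limma adjusted p = 0.0470), a call lost in 14 of 20 fits without 1 mouse (up to 0.0830, without low-fat replicate 8) and with the rank sum test (0.0575). Mean deviation over the list ran from -1.35 through -0.06 to 1.25 in low-fat mice and from -0.22 through 0.90 to 1.33 in high-fat mice. Of 7 measured periportal genes 0 passed by limma or the rank sum test, with 0 higher and 1 lower at an unadjusted p under 0.05 and a median of -0.20. The smallest adjusted p there was that of Hsd17b13 (-1.38, adjusted p = 0.0902). The part of the pericentral genes in the values of Cyp1a2 and Cyp2e1 was not tested.

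**Figure D5:**
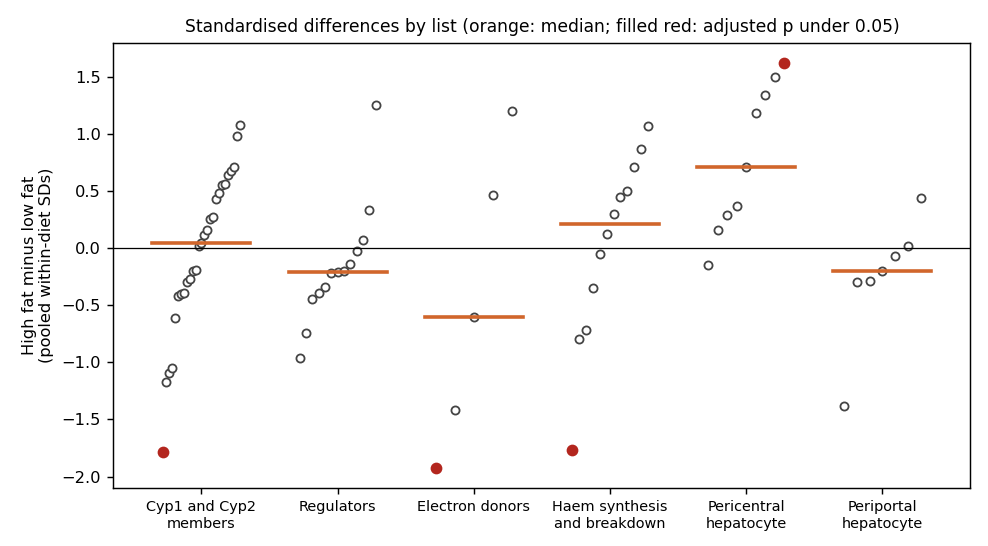
Standardised differences (vertical axis, pooled within-diet SDs) of the members and of 5 lists of related genes; each point is a gene, orange bars are medians and red points passed an adjusted p of 0.05. Medians are 0.04 for members, -0.21 for regulators, -0.60 for electron donors, 0.21 for haem genes, 0.71 for pericentral genes and -0.20 for periportal genes, against 0.04 for all genes. After median centring the members' median was -1.23 and that of all genes -1.29.

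The hepatocyte markers had mean scores from 11.5 to 14.8, on a scale whose array medians lay near 6.57. Of 34 measured markers of 9 other cell types and tissues 1 rose and 1 fell (5.88%, against 3.49% of all genes). These were Cela1 of the pancreas list (1.80, limma adjusted p = 0.0265) and Mylpf of the muscle list (-1.99, limma adjusted p = 0.0209, but -0.35 with an adjusted p of 0.649 after quantile normalisation), and their part in the members' values was not tested. The mean deviation over the 4 pancreas genes ran from -0.60 to 0.87 in low-fat and from -0.57 to 0.99 in high-fat mice, and over the 3 muscle genes from -0.73 to 1.03 and from -1.42 to 0.30, so both lists overlapped between diets. Array medians ran from 6.567016 to 6.567202, and 0 pairs of arrays were identical. In the neighbouring families 2 of 11 Cyp2c genes (18.2%) and 4 of 5 Cyp3a genes (80%) passed, all lower on the high-fat diet. Of all genes 3.49% passed, and the difference of these families from the members was not tested.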

How the data were processed

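Liver RNA of 20 mice was hybridised to Affymetrix arrays after labelling of 200 ng of total RNA with a 3′-end kit, per the labels' protocols. The authors deposited 1 score per probe set and array (45101 probe sets, 64 of them controls). For the summary of probes and the normalisation, the method is not given in the sources used. The design had assumed log-like values; sizes are standardised because differences are compressed (98.2% of probe sets had an SD below 0.001).

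Of the probe sets 34945 had 1 gene symbol, 932 several and 9160 none; of the first, 34741 matched the gene table by identifier. Each gene took its probe set with the highest mean. No filter was used and 0 columns belonged to other samples. The diet contrast was fitted by lmFit and eBayes (limma 3.58.1 under R 4.3.3, no covariate, prior of 0.724 degrees of freedom), adjusted by Benjamini-Hochberg over 18193 genes. Intervals use the noncentral t distribution. The fit was tested on simulated data with 200 changed genes and gave 8 false calls.

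Members and 15 lists (93 entries) were chosen with earlier results of these data known. Named genes were Cyp1a2, Cyp2e1, Cyp2b10, Cyp2a5, members past the threshold, the member with the highest score of each subfamily, the 10 with the smallest adjusted p, and list genes past the threshold or with the smallest adjusted p. Cyp1a1, Cyp2d10, Cyp2d12, Cyp2d13, Cyp2d22, Cyp2d34, Cyp2b9, Cyp2j11 and Cyp2j13 are members named with their levels; Rxra, Ahr, Nr1i2, Cyb5r3, Cyb5a, Alas1 and Ttr were named after their values were seen. Alternatives were other scalings, filters, variance models, weights, probe set rules, an exact rank sum test, the replicate block and leaving out each mouse. Replicates are separate mice, and their number limits the precision.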

Additional observations from a re-analysis of the deposited data

Results flagged for a closer look

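For all probe sets of the members and for the list genes past the threshold, the gap between an extreme mouse and its nearest neighbour was examined within each diet (84 groups of 10 mice). In 5 groups a mouse lay far from the others (gap over range above the critical value), and chance gives about 1 in 20. On 1 of the Cyp2b10 probe sets high-fat replicate 9 was far above the rest (gap over range 0.560, deviation 4.15 SD), and the difference was 0.76 with it and 0.70 without it. Cyp2d13 had low-fat replicate 2 far below the rest on both of its probe sets (0.519 and 0.505). Leaving that mouse out moved the difference from -0.27 to -0.45 on the representative probe set and from 0.19 to 0.03 on the other. On a Cyp1b1 probe set that was not the representative one, high-fat replicate 6 lay far below the rest (0.473), and leaving it out gave a difference of 0.98 in place of 0.64 (limma adjusted p = 0.318). Mylpf had its lowest low-fat value in replicate 4 (0.528), and its limma adjusted p was 0.0209 with that mouse and 0.00887 when it was left out.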

How the results depend on the processing

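The count of members past the threshold (1, lower) was 1 with a variance trend, the unmoderated model, the rank sum test, adjustment over all probe sets, averaging the probe sets of each gene and without cross-hybridising suffixes. It was 3 after quantile normalisation (all lower), 17 after median centring (all lower), and 0 among the upper features by mean, with array weights and at a threshold of 0.01; with all mice and genes 5 members had an unadjusted limma p under 0.05. Leaving out 1 mouse gave 0 to 3 members: 0 without high-fat replicate 4 or low-fat replicates 5, 6 or 9, and 3 without high-fat replicate 5. All genes past the threshold (635) numbered 1488 after quantile normalisation (144 higher, 1344 lower), 15098 after median centring (215 higher, 14883 lower), 212 at 0.01 and 498 to 720 without 1 mouse. The genes of the other lists past the threshold (5 of 81) numbered 50 after median centring, 3 without cross-hybridising suffixes, 0 at 0.01 and 3 to 8 without 1 mouse (3 without low-fat replicate 5 or 6, 8 without high-fat replicate 3). The replicate numbers did not pair the mice (correlation of same-numbered mice across genes from -0.16 to 0.26, over 0.1 in 2 of 10 pairs, and 1 low-fat mouse of 10 closest to its own number). With the replicate number as a block the counts were 0 members, 421 genes and 3 list genes, and limma's adjusted p of Cyp2j9 was 0.106. Among the upper features by mean 9096 genes were tested, of which 755 passed, with 6 list genes and 13 members tested, Cyp2j9 not among them. The cause was not tested for the other changes, except that a stricter threshold gives fewer calls by construction. Median centring subtracts 1 offset per array from all probe sets, and most genes moved down with it.

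Signs turned after quantile normalisation for Cyp1a1 (-1.30), Cyp1a2 (-0.27), Cyp2b19 (-1.05), Cyp2d26 (0.45), Cyp2d34 (-0.29), Cyp2j6 (-0.53) and Cyp2j11 (-1.29). They turned after median centring, where the median of all genes was -1.29, for Cyp1a1 (-1.23), Cyp2a12 (-0.88), Cyp2b10 (-0.68), Cyp2b19 (-1.19), Cyp2d9 (-1.39), Cyp2d22 (-0.94), Cyp2d34 (-1.22), Cyp2e1 (-1.33), Cyp2g1 (-1.07), Cyp2j5 (-0.43), Cyp2j11 (-1.24), Cyp2s1 (-0.95) and Cyp2u1 (-0.17). With probe sets averaged per gene they turned for Cyp1b1 (0.65) and Cyp2u1 (-0.08). Without 1 mouse the ranges crossed 0 for Cyp1b1 (-0.36 to 0.14), Cyp2d9 (-0.08 to 0.40), Cyp2d10 (-0.37 to 0.15), Cyp2e1 (-0.08 to 0.43), Cyp2j11 (-0.20 to 0.27) and Cyp2u1 (-0.12 to 0.28). The file holds no background signal or detection calls, so dim probe sets could not be set apart.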
